A study of Mus musculus with 4 samples.

Results

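Adenosine breakdown and nucleoside uptake were examined through 10 genes chosen by name: Enpp3, Nt5e, Slc28a1, Slc28a2, Slc29a1, Ada, Adk, Ampd3, Pnp and Xdh. Of these, 8 were measured among 12393 genes in all, each by the brightest probe set (a group of array probes for one transcript) annotated to that gene alone. Slc28a1 had no such probe set, and the probe set for Slc28a2 was shared with a second gene. Expression was compared between mouse intestinal Lgr5(hi) stem cells, isolated by flow sorting from wild-type mice (2 arrays), and differentiated villus cells that EDTA released after conditional, epithelium-wide loss of Atoh1 (2 arrays, the enterocyte group). Both groups came from the proximal intestine of C57BL/6 mice aged 4 to 6 weeks. The labels of all 4 samples, wild type included, give tamoxifen at 1 mg per day for 5 days followed by a wait of 5 days. The Cre driver, the deleted part of Atoh1 and the animals behind each sample are not given in the sources used here. Cell type, genotype and isolation differ together between the groups and cannot be told apart. The p-values measure only the spread between labelled biological replicates.

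Extracellular ATP is cut stepwise to AMP and then to adenosine by enzymes on the cell surface. Nucleosides cross the membrane through sodium-driven concentrative transporters (Slc28) or equilibrative carriers (Slc29). Inside the cell adenosine is either rephosphorylated to AMP or deaminated to inosine, and inosine is split to hypoxanthine, which is oxidised to xanthine and urate. The small intestine meets nucleosides both from digested food and from shed epithelial cells, and its epithelium is known for high activity of adenosine deaminase and xanthine oxidoreductase.

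Markers of cell identity differed in the direction the labels give. Atoh1 was at log2 7.43 and 7.71 in the stem arrays against 5.06 and 5.28 in the enterocyte arrays, and Lgr5 was at 11.33 and 10.96 against 6.92 and 6.09. Of 15 measured enterocyte markers 15 were higher in the enterocyte arrays, and of 9 stem cell markers 9 were lower. Among all genes 18.2% were called higher and 22.4% lower. Array medians lay between 102.4 and 110.6 intensity units. The stem arrays showed a steeper fall in signal towards the 5′ end of control transcripts: the Gapdh control was brighter at its 3′ than at its 5′ end by 1.70 and 1.92 (log2) in the stem arrays but by 0.15 and 0.17 in the enterocyte arrays, and the Actb control by 2.06 and 2.10 against 0.56 and 0.50. The part of this in the gene differences below was not tested. A background level of log2 5.67 was taken from 25 genes of other organs.

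Of the 8 measured genes, 5 were higher in enterocytes past an adjusted p of 0.05 (limma, Benjamini-Hochberg over all genes), namely Enpp3, Ada, Xdh, Nt5e and Pnp. Among all genes 40.6% were called and 18.2% were called higher. None of the 8 was called lower, against 22.4% of all genes; at an unadjusted p under 0.05, 2 lay below 0, Slc29a1 and the probe set used for Adk, whose second bright probe set passed upward. The median log2 difference (enterocyte minus stem) of the 8 genes was 1.87, beside -0.0026 over all genes. Differences of at least 16-fold upward were seen in 3 of the 8, Enpp3, Ada and Xdh, and in 0.952% of all genes. The genes and tests were chosen with earlier results of these data known. The values over all genes therefore describe the 8 and do not test them as a set. By log2 difference Enpp3 ranked 7 and Ada ranked 8 among the 12393 genes. Dropping a stem array, whichever it was, left no call in the whole table, including these 5 (0 genes called, with 4675 without stem replicate 1 and 4817 without stem replicate 2 at an unadjusted p under 0.05), although the log2 differences of the 5 genes moved by at most 0.08.

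**Figure D1:**
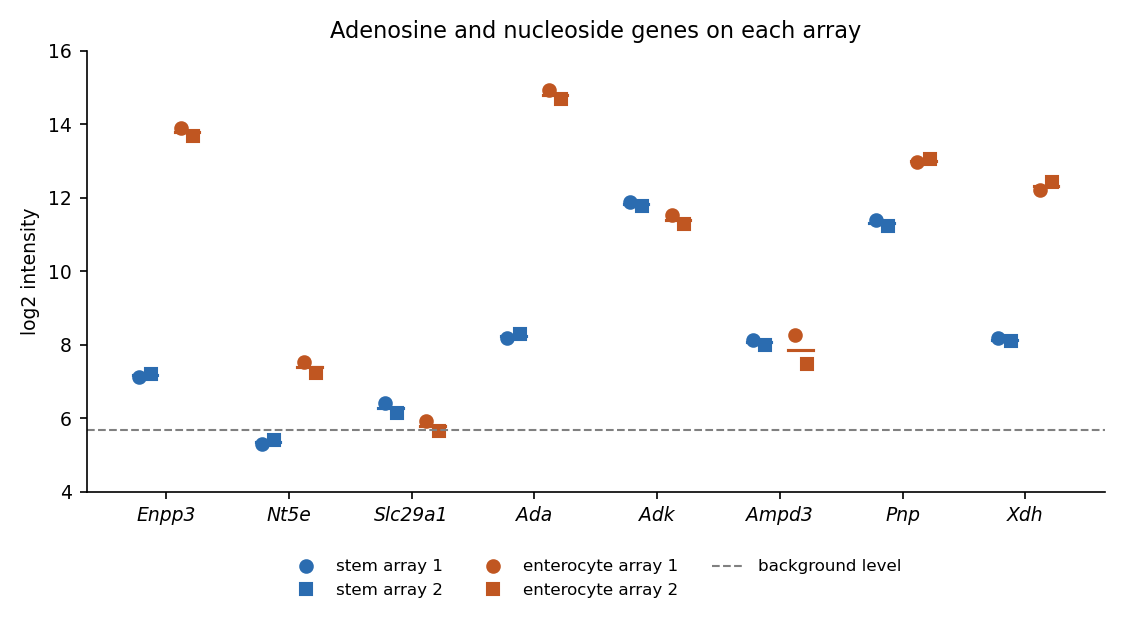
Log2 intensity (vertical axis) of the 8 measured genes on each of the 4 arrays. Blue points are stem arrays, orange points enterocyte arrays, short lines group means and the dashed line the background level of 5.67. The groups lie far apart for Enpp3, Ada and Xdh, and the enterocyte arrays of Ampd3 spread from 7.48 to 8.25, on both sides of the stem arrays.

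The RefSeq promoter table held 9 of the 10 genes, all but Xdh. Upstream sequences are shown for the other 4 of the 5 genes called higher, because they moved in the same direction while their base composition ranged widely. The sequences are the 250 bases before the RefSeq start in GRCm38.p6, read 5′ to 3′ on the gene's strand, with capitals marking matches to the GC box motif GGGCGG or the TATA box motif TATAAA on either strand. Ada lies at chr2:163750240-163750489, minus strand, Enpp3 at chr10:24836196-24836445, minus strand, Nt5e at chr9:88327359-88327608, plus strand and Pnp at chr14:50944053-50944302, plus strand.
Enpp3: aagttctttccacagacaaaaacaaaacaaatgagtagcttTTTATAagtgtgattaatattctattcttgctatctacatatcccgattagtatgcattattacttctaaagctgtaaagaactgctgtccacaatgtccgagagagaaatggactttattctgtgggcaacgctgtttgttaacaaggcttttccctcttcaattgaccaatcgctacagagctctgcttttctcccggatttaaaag
Ada: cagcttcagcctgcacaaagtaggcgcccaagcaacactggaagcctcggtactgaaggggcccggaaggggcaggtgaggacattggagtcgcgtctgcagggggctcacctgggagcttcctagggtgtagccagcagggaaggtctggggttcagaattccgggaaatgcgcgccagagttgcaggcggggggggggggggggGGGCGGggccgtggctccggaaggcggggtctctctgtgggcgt
Nt5e: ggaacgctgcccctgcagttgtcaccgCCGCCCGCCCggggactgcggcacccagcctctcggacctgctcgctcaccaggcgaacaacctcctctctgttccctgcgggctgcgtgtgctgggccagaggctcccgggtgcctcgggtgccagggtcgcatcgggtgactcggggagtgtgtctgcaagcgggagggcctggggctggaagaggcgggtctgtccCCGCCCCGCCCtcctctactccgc
Pnp: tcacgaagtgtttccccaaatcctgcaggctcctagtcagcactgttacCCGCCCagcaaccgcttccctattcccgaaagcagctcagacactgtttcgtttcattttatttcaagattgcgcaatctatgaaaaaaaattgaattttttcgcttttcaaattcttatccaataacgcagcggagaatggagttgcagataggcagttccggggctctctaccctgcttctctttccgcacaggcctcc
The share of G and C was 36.8% upstream of Enpp3, 46.8% for Pnp, 67.2% for Ada and 72.0% for Nt5e, where the median of 32851 such windows was 52.4%. The dinucleotide CG occurred 5 times upstream of Enpp3, 11 times for Pnp, 14 times for Ada and 21 times for Nt5e (median 6). GGGCGG was found once upstream of Ada and of Pnp, 4 times upstream of Nt5e, in overlapping pairs, and not upstream of Enpp3; it occurs in 32.7% of all windows. TATAAA matched once, on the opposite strand of Enpp3, 209 to 204 bases before the start, and occurs in 12.4% of windows. The HNF4 motif CAAAGTCCA, the GATA motif AGATAA, the CDX motif TTTATG and the HNF1 palindrome were found on neither strand of these 4 windows. In that order they occur in 0.384%, 9.99%, 10.8% and 0.00913% of all windows. Among the listed genes whose windows are not shown, the GATA and CDX motifs each matched upstream of Slc28a2, Slc29a1 and Ampd3. Slc28a2 had 1 window, but Slc29a1 had 8, with both matches in window 3. Ampd3 had 3, with CDX in window 2 and GATA in window 3. Each of the 4 genes shown had 1 window, so the genes were not searched to the same extent. The windows of Enpp3 and Ada, the pair of genes with the largest differences among the 8, thus stand on opposite sides of the median in base composition.

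Both measured enzymes of the cell surface were higher in enterocytes. Enpp3, an ectonucleotide pyrophosphatase that cuts extracellular nucleotides such as ATP to the monophosphate, was at log2 7.13 and 7.21 in the stem arrays against 13.90 and 13.69 in the enterocyte arrays. The groups did not overlap, and each pair of replicates lay within 0.22 of each other. Its log2 difference was 6.63 ± 0.10 (SE, n = 2 arrays per group), or 98.7-fold, with an adjusted p of 0.00231 by limma. Both enterocyte arrays lay above both stem arrays in 30.5% of all genes and below them in 34.8%. Nt5e, also called CD73, which turns extracellular AMP into adenosine, was far dimmer: 5.29 and 5.41 in the stem arrays, both below background, and 7.54 and 7.23 in the enterocyte arrays. It was at least 3.28-fold higher (log2 difference 2.03 ± 0.14 SE, adjusted p = 0.00491 by limma). Without stem replicate 1 or 2 the differences were 6.58 and 6.67 for Enpp3 (adjusted p = 0.0524 and 0.0552 by limma) and 1.97 and 2.10 for Nt5e (0.0840 and 0.0813).

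Enpp3 was read by 5 probe sets, which did not give the same result. Tested each on its own, a check added after the data were seen, 4 were higher in enterocytes, by 7.40 ± 0.06, 7.24 ± 0.12, 6.63 ± 0.10 and 3.23 ± 0.09 (log2, SE). The last of these was dim, below background in the stem arrays and at 7.07 and 7.06 in the enterocyte arrays. The remaining one, 1425353_at, was below background in both groups (5.09 and 5.19 against 5.06 and 5.45) and differed by 0.12 ± 0.17 (adjusted p = 0.636 by limma). When the dimmest probe set stood for the gene, Enpp3 was therefore not called. Ada, Nt5e, Xdh, Ampd3 and Slc29a1 had 1 probe set each.

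**Figure D2:**
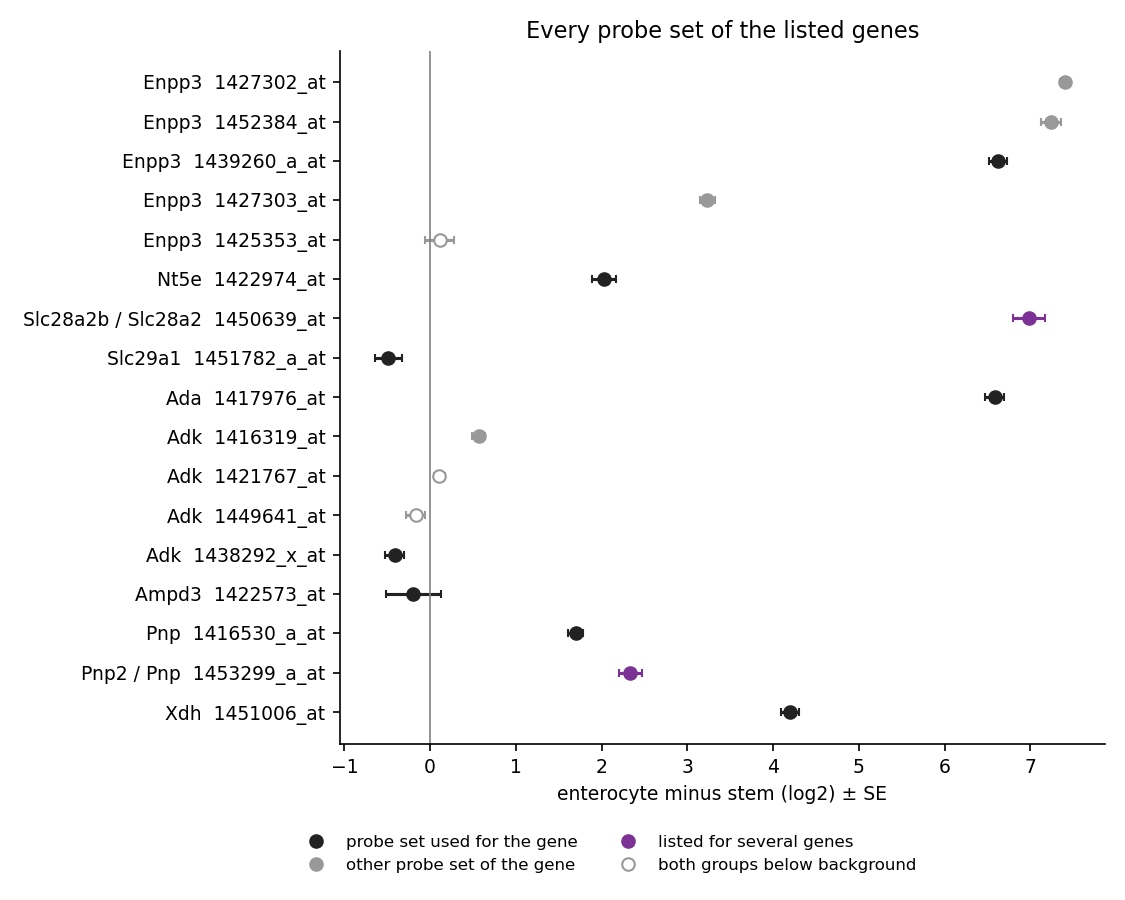
Log2 difference, enterocyte minus stem, with its SE (horizontal axis) for each probe set of the listed genes, n = 2 arrays per group. Black points are the probe sets used, grey points other probe sets of the same gene, purple points probe sets listed for several genes, and open points lay below background in both groups. The 2 brighter probe sets of Adk lie on opposite sides of 0, at -0.41 and 0.57.

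Among the nucleoside carriers, only Slc29a1 could be tested under its own name. It encodes an equilibrative nucleoside transporter of the plasma membrane. Its signal was weak, at 6.41 and 6.13 in the stem arrays against 5.91 and 5.66 in the enterocyte arrays, the last of these at background. The groups did not overlap, with the enterocyte arrays lower, but the difference of -0.49 ± 0.16 SE did not pass (adjusted p = 0.102 by limma; 95% interval -0.97 to -0.0017 unadjusted). With the replicate number as a block it passed, at an adjusted p of 0.0377 by limma, and after centring on reference genes it was -1.26 and passed, whereas centring on added control transcripts (spike-ins) turned it to 0.29. The probe set 1450639_at is annotated to Slc28a2, the purine-preferring concentrative transporter, and equally to Slc28a2b. It was at 5.75 and 5.40 in the stem arrays, around background, and at 12.71 and 12.40 in the enterocyte arrays. Which of the pair gave this signal cannot be read from the array, so no value is given for either gene.

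Within the cell, deamination and phosphorylation of adenosine were represented by genes with unlike differences. Ada, adenosine deaminase, which turns adenosine into inosine, was at 8.17 and 8.28 in the stem arrays against 14.93 and 14.69 in the enterocyte arrays. In intensity units this was 289 and 311 against 31119 and 26475. The groups did not overlap, and the difference was 6.58 ± 0.11 SE, or 95.8-fold (adjusted p = 0.00253 by limma). Without stem replicate 1 or 2 it was 6.53 and 6.64 (adjusted p = 0.0524 and 0.0552 by limma). Adk, adenosine kinase, which returns adenosine to AMP, was bright in both groups, at 11.87 and 11.76 in the stem arrays against 11.52 and 11.29 in the enterocyte arrays. Its difference of -0.41 ± 0.11 SE did not pass (adjusted p = 0.0659 by limma; 95% interval -0.75 to -0.08 unadjusted). A second bright probe set of Adk, 1416319_at, pointed the other way, at 9.55 and 9.43 against 10.09 and 10.03, and tested on its own its difference of 0.57 ± 0.07 SE passed (adjusted p = 0.0165 by limma). The probe set used, 1438292_x_at, carries the suffix for possible cross-hybridisation. No direction is therefore given for Adk. Ampd3, an AMP deaminase, which turns AMP into IMP, was at 8.13 and 7.99 in the stem arrays against 8.25 and 7.48 in the enterocyte arrays. The enterocyte arrays enclosed the stem arrays, and the difference of -0.19 ± 0.31 SE was smaller than their spread (adjusted p = 0.664 by limma; 95% interval -1.15 to 0.77). It changed sign, to 0.19, without enterocyte replicate 2.

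The enzymes that carry inosine on to urate were both higher in enterocytes. Pnp, purine nucleoside phosphorylase, which splits inosine and guanosine into base and ribose phosphate, was already bright in stem cells at 11.40 and 11.23 and reached 12.97 and 13.05 in enterocytes. The groups did not overlap, and the difference was 1.70 ± 0.09 SE, or 3.24-fold (adjusted p = 0.00356 by limma). Leaving out any 1 of the 4 arrays ended this call, with log2 differences of 1.61 to 1.78 and adjusted p between 0.0530 and 0.0576 by limma. A further probe set, 1453299_a_at, listed for Pnp and Pnp2 together, was at 10.19 and 9.92 against 12.30 and 12.48; the array signal cannot be divided between these near copies. Xdh, xanthine dehydrogenase, which oxidises hypoxanthine to xanthine and xanthine to urate, was at 8.17 and 8.09 in the stem arrays against 12.21 and 12.44 in the enterocyte arrays. All enterocyte values lay above all stem values, by 4.19 ± 0.11 SE or 18.3-fold (adjusted p = 0.00261 by limma). Without stem replicate 1 or 2 the Xdh difference was 4.23 and 4.16 (adjusted p = 0.0524 and 0.0557).

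Markers of lymphocytes were mostly higher in the enterocyte arrays and those of secretory cells mostly lower. Among all genes 18.2% were called higher and 22.4% lower. Of 13 measured lymphocyte markers 10 were higher in the enterocyte arrays and 3 did not pass, and their summed intensity was 715 and 987 in the stem arrays against 8822 and 11884 in the enterocyte arrays. The T cell gene Cd3g was at 4.71 and 4.88 against 8.01 and 8.24, and the B cell genes Cd79a and Cd79b were below background in both groups. Ada and Nt5e are known to be made by lymphocytes too. The part of such cells was not tested for these or for Enpp3, Xdh and Pnp. Of 10 myeloid markers 2 were higher, 2 were lower and 6 did not pass, near the shares of all genes. Their sums were 2160 and 3043 against 617 and 605. The brightest in the stem arrays, Lyz2, was at 10.39 and 11.10 against 5.12 and 7.03. Of the 2 higher, Itgax was below background in both groups and Fcgr3 was at least 1.06-fold higher. Of 14 markers of stroma and vessels 11 were below background in both groups and 1, Vim, was lower (sums 513 and 612 against 528 and 491). All 3 measured erythroid markers were below background in both groups. Secretory cell markers were lower in 10 of 13 cases and higher in 2, Dclk1 and Trpm5 (sums 53399 and 65736 against 2175 and 4392). In bulk RNA, fewer cells of a type and less RNA per cell cannot be told apart.

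Genes that act next to these 8 were counted in lists of the same pathway. Each list count below is to be set beside the 12393 genes, of which 18.2% were called higher and 22.4% lower. After reference gene centring 1173 of all genes were called higher and 9567 lower. In the list named for extracellular nucleotide hydrolysis, 4 of 11 measured were higher, 0 lower and 7 did not pass (median 0.46), and after reference gene centring 3 were higher and 5 lower. Akp3, an intestinal alkaline phosphatase, was at least 11.1-fold higher (5.31 and 5.17 against 8.70 and 9.58; adjusted p = 0.00729 by limma). Of the 4, Entpd7 and Entpd5 encode nucleotide hydrolases of internal membranes, not of the cell surface. They were 8.93-fold and 7.44-fold higher (adjusted p = 0.00261 and 0.00496 by limma); the dimmest probe set of Entpd7 gave -0.11 and no call, and Entpd5 lost its call without enterocyte replicate 2 (2.67, adjusted p = 0.0504). Of 12 measured nucleotide receptors 8 were below background in both groups, 1 was higher and 1 lower (median 0.05), with 1 higher and 9 lower after reference gene centring. P2ry1, a receptor for ADP, was 3.62-fold higher, and P2ry6, a receptor for UDP, was at least 6.28-fold lower (8.50 and 8.15 against 5.61 and 5.39; adjusted p = 0.0102 and 0.00422 by limma). Both calls were lost with either enterocyte array left out (1.70 and 2.02 for P2ry1, -2.93 and -2.71 for P2ry6). The 4 adenosine receptor genes were on the same receptor list, but none was among the 12 measured.

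Of 8 other carriers 2 were higher, 2 lower and 4 short of the threshold (median 0.49), near the 18.2% and 22.4% of all genes. After reference gene centring 1 was higher and 4 lower (1173 and 9567 of all 12393 genes). Slc28a3, a concentrative transporter of broad range, was 1.77-fold higher (adjusted p = 0.0359 by limma), but its difference was 0.05 and not called after reference gene centring, -0.02 on its dimmest probe set, and its call was lost with either enterocyte array left out (0.66 and 0.99). Slc23a2, a vitamin C transporter of the nucleobase carrier family, was 9.85-fold higher (adjusted p = 0.00587 by limma); without enterocyte replicate 2 it was 3.01 (log2) and not called (adjusted p = 0.0561), and its dimmest probe set gave 0.67 (0.0687). Slc23a3 was 3.15-fold lower (adjusted p = 0.0201 by limma), and was not called with either enterocyte array left out (-1.79 and -1.52). Slc29a2, a second equilibrative transporter, was called lower (adjusted p = 0.0084 by limma) but was below background in both groups by its means, so no fold is given; with either enterocyte array left out it was -1.12 and -0.95 and not called.

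Purine breakdown and salvage inside the cell went both ways. Of 20 measured genes 6 were higher, 6 lower and 8 did not pass (median -0.19), beside 18.2% higher and 22.4% lower among all genes. After reference gene centring 4 were higher and 14 lower (1173 and 9567 of all 12393 genes). Gda, guanine deaminase, which feeds guanine into xanthine, stood apart at 5.32 and 5.49 against 11.73 and 12.13, at least 76.3-fold higher (adjusted p = 0.00261 by limma). Ak3, a mitochondrial adenylate kinase, was 2.92-fold higher and Nt5c2, a cytosolic nucleotidase that prefers IMP and GMP, 2.76-fold higher (adjusted p = 0.0111 and 0.00265 by limma). Ak3 lost its call with either enterocyte array left out (1.56 and 1.53), and Nt5c2 was 0.16 and not called on its dimmest probe set. Without probe sets that may cross-hybridise, Nt5c2 was 0.65 and not called (adjusted p = 0.058 by limma). Among the lower genes, the AMP deaminase gene Ampd2 fell from 10.72 and 10.85 to 9.18 and 8.82, or 3.45-fold (adjusted p = 0.00715 by limma), where Ampd3 did not pass; whether this pair differ was not tested. Without enterocyte replicate 2 Ampd2 was -1.61 (adjusted p = 0.0529). Nt5c3b, a nucleotidase, was 3.30-fold lower, with -0.04 and no call on its dimmest probe set, and Mtap, which salvages methylthioadenosine, 2.22-fold lower (adjusted p = 0.00395 and 0.00844 by limma), with Mtap lost with either enterocyte array left out (-1.27 and -1.04). The purine salvage gene Hprt, named outside the rule after its values were seen, was at 10.93 and 10.91 against 10.91 and 10.88.

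The cofactor and urate genes around Xdh contained 5 higher and 1 lower of 13 measured (median 0.14). After reference gene centring 5 were higher and 7 lower (1173 and 9567 of all 12393 genes). Mocos, which sulfurates the molybdenum cofactor that xanthine dehydrogenase needs, was 10.2-fold higher (6.67 and 6.80 against 10.09 and 10.09; adjusted p = 0.00261 by limma). The urate transporter genes Slc2a9 and Abcg2 were 7.48-fold and 6.81-fold higher (adjusted p = 0.00269 and 0.00419 by limma). Abcg2 lost its call with either enterocyte array left out (2.88 and 2.65), and Slc2a9 without enterocyte replicate 2 (2.86, adjusted p = 0.0508). Gphn, which inserts molybdenum into the cofactor, was 1.31-fold lower (adjusted p = 0.0241 by limma), and did not pass with the replicate block (0.0576), with the mean over probe sets (-0.09) and with either enterocyte array left out (-0.34 and -0.45), and its dimmest probe set gave 0.21 and spike-in centring 0.38.

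Pyrimidine breakdown and salvage showed 5 of 12 measured genes higher and 1 lower (median 0.15). After reference gene centring 4 were higher and 7 lower (1173 and 9567 of all 12393 genes). Upp1, uridine phosphorylase, was 18.6-fold higher at 7.59 and 7.32 against 11.85 and 11.50 (adjusted p = 0.00316 by limma). Cda, cytidine deaminase, was 7.29-fold higher and Dpyd, the enzyme that starts uracil and thymine breakdown, 4.24-fold higher (adjusted p = 0.00261 and 0.0111 by limma). Tk1, the thymidine kinase of dividing cells, was 2.89-fold lower (adjusted p = 0.00494 by limma). With either enterocyte array left out Dpyd (2.35 and 1.81) and Tk1 (-1.45 and -1.61) were not called.

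Purine synthesis from small precursors, the list with the lowest median of the 7, had 5 of 9 measured genes lower and 2 higher (median -0.47). After reference gene centring 7 were lower and 0 higher (9567 and 1173 of all 12393 genes). Gart, Ppat and Paics, enzymes of that route, were 7.76-fold, 3.83-fold and 3.34-fold lower (adjusted p = 0.00433, 0.00261 and 0.0121 by limma). Their dimmest probe sets gave -0.44 for Gart and -1.18 for Ppat, neither called, and Paics lost its call with either enterocyte array left out (-1.96 and -1.52). Adss, which commits IMP to AMP, was 2.32-fold higher and Prps1, which makes the ribose phosphate donor, 1.98-fold higher (adjusted p = 0.0112 and 0.0397 by limma). Neither Adss nor Prps1 was called after reference gene centring (0.43 and 0.21) or with either enterocyte array left out (1.37 and 1.06, 0.82 and 1.16). The difference between this list and the 8 genes was not tested, since the genes were chosen with results known.

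**Figure D3:**
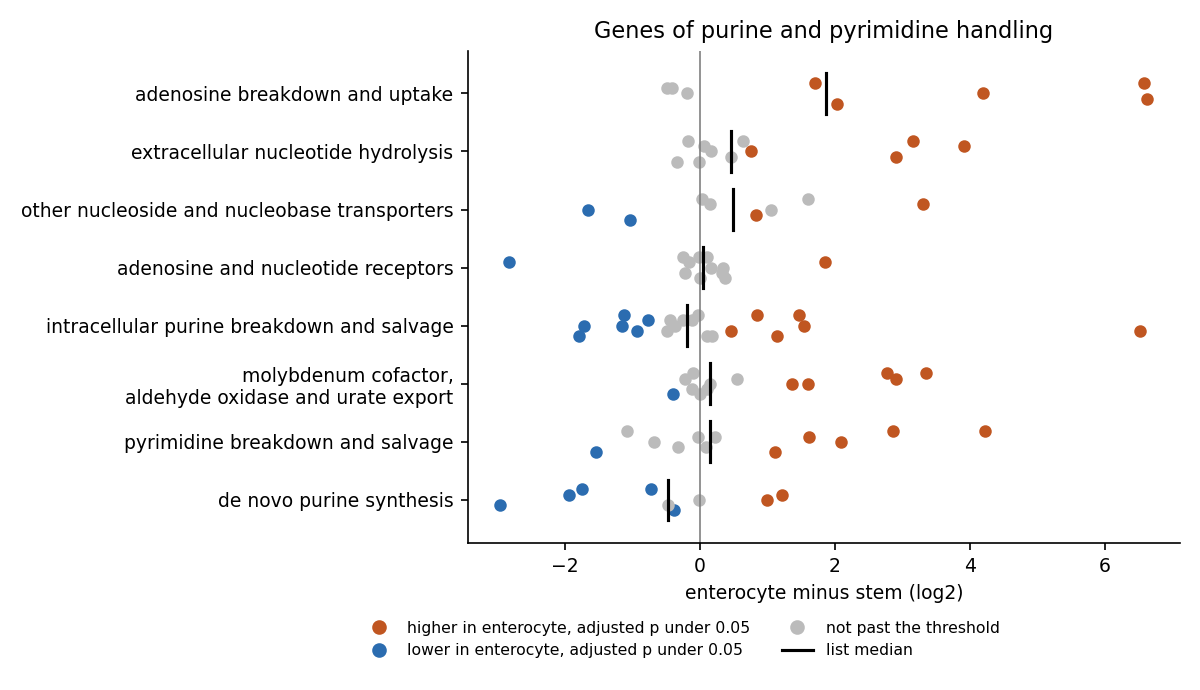
Log2 difference, enterocyte minus stem (horizontal axis), of each measured gene in the adenosine and nucleoside genes and in 7 lists of related genes, n = 2 arrays per group. Orange and blue points passed an adjusted p of 0.05 upward and downward, grey points did not, and black bars are list medians, from 1.87 in the top row to -0.47 for de novo purine synthesis.

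Outside the 10 listed genes, those nearest to Enpp3 over the 4 arrays, by the distance between log2 values centred on each gene's mean, were Cd55, Clec2h and Pmp22, at distances of 0.22, 0.23 and 0.34; Ada, one of the 10, lay nearer at 0.0495. Cd55, which shields cells from complement, was at 4.94 and 4.86 in the stem arrays against 11.71 and 11.65 in the enterocyte arrays. Clec2h, a C-type lectin gene, was at 7.20 and 7.06 against 13.85 and 13.83, and Pmp22, a membrane protein gene, at 4.72 and 4.62 against 11.39 and 11.54. For Slc29a1, the lowest of the 8 by its difference, the nearest outside the 10 were Pafah1b3, Tti2 and Myo19, at 0.0338, 0.0352 and 0.0354, none of them past the threshold. With 4 arrays in 2 groups, likeness describes little beyond the group difference.

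Scaling changed the genes with small differences and kept the 5 called genes above 0. After each array was centred on the median of 9 reference genes, the median difference of all genes moved to -0.78, and Enpp3, Ada, Xdh, Nt5e and Pnp were still called higher, at 5.85, 5.80, 3.42, 1.26 and 0.92. Under the same centring Slc29a1, Adk and Ampd3 were called lower, at -1.26, -1.19 and -0.97. Of the 9 reference genes themselves 4 were higher and 2 lower as deposited, so this centring does not rest on stable genes. The 9 probe sets of the hybridization spike-ins, foreign transcripts added in fixed amounts, moved the opposite way: their enterocyte minus stem differences ranged from -2.26 to -0.04, with a median of -0.67. The 15 probe sets of the labelling controls, a further control group, had a median of 0.0045 and ranged from -0.80 to 1.48. Centring each array on the median of the spike-ins, an alternative added after the data were seen, moved the median difference of all genes to 0.77. Enpp3, Ada, Xdh, Nt5e and Pnp then stood at 7.40, 7.35, 4.96, 2.80 and 2.47, and Slc29a1, Adk and Ampd3 turned to 0.29, 0.36 and 0.58. Since the shift between arrays is shared by all genes, limma took 1 common spread for every gene under this centring, and its p-values are not given. The medians of the 7 related lists lay between 0.30, for purine synthesis, and 1.26 under it, all above 0. The sign of Slc29a1, Adk and Ampd3 therefore depends on the scale, and that of the 5 called genes was the same under both centrings.

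**Figure D4:**
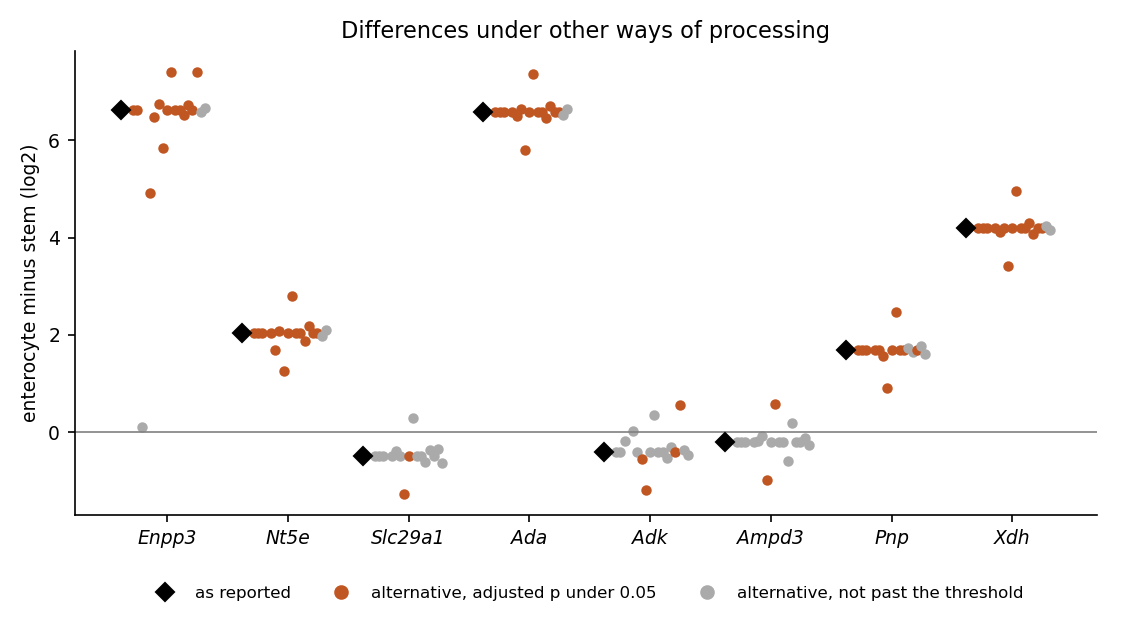
Log2 difference, enterocyte minus stem (vertical axis), of each of the 8 genes as reported (black diamonds) and under each alternative processing (small points, orange where the adjusted p was under 0.05). The colour of the spike-in centring points rests on a common spread for all genes and is not read as a call. Enpp3 drops to 0.12 on its dimmest probe set, and Slc29a1, Adk and Ampd3 have points on both sides of 0.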

How the data were processed

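RNA of 4 samples was hybridised to Affymetrix mouse arrays from 100 ng of total RNA, per the labels' protocols. The authors deposited linear, normalized intensity values (7.93 to 41704). RMA is named per the submitters' processing notes; the normalization between arrays is not stated there. Log2 was taken with no pseudocount. Of 22690 probe sets, 64 were controls, 20380 had 1 gene symbol, 691 several and 1555 none. The platform annotation named them, 20351 matched RefSeq GRCm38.p6 by Entrez identifier, and 0 symbols changed. Per gene the probe set with the highest mean was used; 4956 genes had several.

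Differences were tested over 12393 genes with limma 3.58.1 (lmFit, eBayes; R 4.3.3), two-sided, at an adjusted p of 0.05; the residual degrees of freedom were 2 and the prior ones 1.23. Tied replicates in both groups (209 genes, none of the measured set) lower the spread limma sees. An exact permutation test of 2 against 2 arrays cannot go below p = 0.333. The background level is the 90th percentile over 25 genes specific to other organs; "at least" folds raise dim arrays to it. Genes, lists and tests were chosen with earlier results of these data known. Named genes are the 10 listed, up to 3 per list and direction with the largest called difference, Atoh1, Lgr5 and the 3 nearest genes outside the 10 to the largest rise and fall. Marker genes of other cells (Cd3g, Cd79a, Cd79b, Lyz2, Itgax, Fcgr3, Vim, Dclk1, Trpm5) and Hprt were named after their values were seen. The number of arrays limits the precision, and the steps were tested on simulated data.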

Additional observations from a re-analysis of the deposited data

Results flagged for a closer look

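Signal of 2 probe sets lay outside the comparison, because the annotation lists them for several genes, and was brighter in the enterocyte than in the stem arrays. The probe set 1450639_at (Slc28a2 and Slc28a2b) differed by 6.98 ± 0.19 SE (log2, n = 2 arrays per group), at least 115-fold, with an adjusted p of 0.00353 by limma over all probe sets tested on their own. The probe set 1453299_a_at (Pnp and Pnp2) differed by 2.34 ± 0.14 SE, or 5.05-fold (adjusted p = 0.00532 by limma). Neither value can be given to 1 gene.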

How the results depend on the processing

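Leaving out 1 array at a time gave 0 to 663 genes higher and 0 to 1058 lower in all, 0 to 4 of the measured adenosine and nucleoside genes higher and 0 lower, and 0 to 14 genes of the related lists higher and 0 to 5 lower. The 0 came without either stem array. The groups share replicate numbers, but these only label biological replicates, so they were not taken as pairs. Deviations of same-numbered samples correlated at 0.0504. With 2 arrays per group the deviations are mirror images, so this value cannot settle whether the samples are paired. With the replicate block 5 of the 8 genes were higher and 1 lower (Slc29a1). There was also 1 lower without genes below background and 1 with quantile normalization (Adk in both), and reference gene centring gave 3 lower of the 8, 1173 higher and 9567 lower of all genes, and 53 lower genes in the related lists. Adk turned to 0.023 with the mean over probe sets and to 0.57 without probe sets that may cross-hybridise, and Ampd3, at -0.58 without enterocyte replicate 1, to 0.19 without enterocyte replicate 2. Spike-in centring, added after the data were seen, gave 8629 higher and 1339 lower of all genes and 61 higher and 8 lower in the related lists, with a common spread for all genes, and turned Adk to 0.36, Slc29a1 to 0.29 and Ampd3 to 0.58. The setting named for possible cross-hybridisation drops all probe sets that end in _s_at, _x_at or _a_at. Pnp and Slc29a1 had no value under it because theirs end in _a_at, which does not by itself mark cross-hybridisation with other genes. The cause of these changes was not tested.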
